A study of Mus musculus with 32 samples.

Results

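Heat shock proteins and their partner chaperones were described across the hippocampus of 8 inbred mouse strains. The members were all probe sets on the array whose only gene symbol in the platform annotation begins with Hspa, Hspb, Hspd, Hspe, Hsph, Hsp90 or Dnaj, or is Cct followed by a digit, Tcp1 or Stip1. This gave 57 genes on 80 probe sets, out of 8251 named genes and 12422 probe sets in all. Of the 80 probe sets, 67 (55 genes) lay among the 7453 probe sets with the highest mean signal, which were tested. The 13 member probe sets below the limit include those of Hspb1 and Dnajb8, the genes with no tested probe set, and second probe sets of genes tested elsewhere, such as Hsp90aa1, Tcp1 and Hspb8. Hsp90ab1 and Dnajc6 were not analysed here. Expression was measured on 32 Affymetrix U74Av2 arrays, on which each gene is read by 1 or more sets of short probes. The groups were untreated mice of the strains C57BL/6J, BALB/cByJ, A/J, strain-129S1/SvImJ, SJL/J, C3H/HeJ, FVB/NJ and DBA/2J. The labels name no transgene, deletion or agent in any of them, and the mice's age and sex are not stated in the sources used here. Hippocampal RNA of 6 mice was pooled into 1 pool per strain and copied into 1 cDNA. From it cRNA was prepared 2 times, and each preparation was hybridised to 2 arrays, so that arrays 1 and 2 of a strain carry preparation 1 and arrays 3 and 4 carry preparation 2. Since a strain is 1 pool, every SD and p-value below measures the spread of preparations and arrays, not the spread between animals.

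Chaperones bind unfolded or partly folded proteins and hold, fold or disassemble them. HSP70 proteins do this in cycles of ATP binding, in which J-domain proteins (DnaJ A, B and C) deliver clients and trigger ATP hydrolysis, while exchange factors such as HSP110 release the nucleotide. HSP90 receives clients from HSP70 through the linker protein Stip1, small heat shock proteins hold aggregating proteins, and the barrel-shaped chaperonins fold proteins inside a chamber, Hspd1 with its lid Hspe1 in mitochondria and TRiC (Tcp1 and the Cct subunits) in the cytosol. In neurons these proteins also serve synaptic vesicle cycling, as with Hspa8, which uncoats clathrin-coated vesicles, and Dnajc5, the cysteine string protein of synaptic vesicles. Many cytosolic members are induced by heat shock factor, which binds inverted GAA repeats, and many members of the endoplasmic reticulum (ER) by the unfolded protein response, which acts on the ER stress element.

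Promoter sequence was taken from RefSeq (mouse build GRCm38.p6), as windows from 250 bases before to 50 bases after a gene's start, and 49 of the 57 genes had 1 or more, 63 windows in all. Both strands were searched for 3 alternating heat shock repeats (GAANNTTCNNGAA), which contain the shorter pair GAANNTTC, and for the ER stress element (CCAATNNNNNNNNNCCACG). The 3-repeat motif lay in 6 of the 63 member windows (9.52%) and in 0.603% of the 32851 windows of all genes. The 6 windows belong to 4 genes, Dnajb6, Hspd1, Hspe1 and Hsph1 (8.16% of the 49, against 0.662% of all genes). The windows of Dnajb6 overlap and hold the same match, as do those of Hsph1. Those of Hspd1 and Hspe1 also overlap and share their matches, so the windows count a match more than 1 time. The pair of repeats lay in 12 windows (19.0%, against 7.86% of all windows). The ER stress element lay in 3 windows (4.76%, against 0.119% of all), those of Dnajc3, Hsp90b1 and Hspa5. A match is a description of letters in the window, not of binding. The windows of 4 genes that are described below are given 5′ to 3′ on the gene's strand with the match in capitals: the window that Hspe1 shares with Hspd1, that of Dnajb6, and the ER stress element windows of Hspa5 and Dnajc3. In the Hspe1 window the capitals hold 2 overlapping matches, and the start of the nearer one lies 84 bases before the gene's start. They lie at chr1:55087898-55088197 (+ strand), chr5:29735648-29735947 (+ strand), chr2:34771840-34772139 (+ strand) and chr14:118937682-118937981 (+ strand), in this order.
Hspe1: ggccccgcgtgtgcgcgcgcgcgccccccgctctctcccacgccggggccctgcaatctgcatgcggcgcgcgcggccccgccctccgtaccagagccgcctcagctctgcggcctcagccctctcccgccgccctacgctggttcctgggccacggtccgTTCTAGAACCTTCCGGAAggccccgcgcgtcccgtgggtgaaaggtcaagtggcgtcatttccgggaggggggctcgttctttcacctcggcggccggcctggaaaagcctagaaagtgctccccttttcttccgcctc
Dnajb6: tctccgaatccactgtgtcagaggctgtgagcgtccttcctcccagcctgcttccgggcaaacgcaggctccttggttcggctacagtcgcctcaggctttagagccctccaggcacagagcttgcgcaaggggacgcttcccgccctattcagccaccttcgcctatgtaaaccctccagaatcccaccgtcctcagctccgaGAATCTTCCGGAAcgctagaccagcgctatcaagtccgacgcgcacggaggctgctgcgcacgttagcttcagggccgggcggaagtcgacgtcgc
Hspa5: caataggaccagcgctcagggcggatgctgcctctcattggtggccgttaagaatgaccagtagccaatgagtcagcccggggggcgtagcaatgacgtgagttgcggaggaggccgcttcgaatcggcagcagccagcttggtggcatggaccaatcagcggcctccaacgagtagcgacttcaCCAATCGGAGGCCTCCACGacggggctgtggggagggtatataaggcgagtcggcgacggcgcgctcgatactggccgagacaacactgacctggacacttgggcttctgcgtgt
Dnajc3: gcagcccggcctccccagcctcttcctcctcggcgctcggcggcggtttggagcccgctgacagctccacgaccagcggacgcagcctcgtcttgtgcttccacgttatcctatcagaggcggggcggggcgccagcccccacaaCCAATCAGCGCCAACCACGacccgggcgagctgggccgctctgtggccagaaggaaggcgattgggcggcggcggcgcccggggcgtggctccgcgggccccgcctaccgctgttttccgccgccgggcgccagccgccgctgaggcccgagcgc

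Before any comparison, the BALB/cByJ arrays stood apart. Controls for the sense strand of actin and Gapdh, which should give little signal, had a mean log2 signal of 7.60 to 7.84 on the 4 BALB/cByJ arrays. It was also high, from 6.95 upwards, on 7 arrays of other strains (array 1 of FVB/NJ and the preparation 1 arrays of SJL/J, C3H/HeJ and A/J), and it was 4.91 to 5.64 on the remaining 21 arrays. Each array correlated with the others of its strain at 0.891 to 0.911 in BALB/cByJ and at 0.907 to 0.955 in the other 7 strains. The median signal per array was 29.4 to 43.65. The 3′ over 5′ signal of actin, a measure of RNA integrity, was -0.18 to 0.46 on the log2 scale in BALB/cByJ and 0.05 to 0.68 elsewhere. Markers of neurons (7 of 7), astrocytes (4 of 4 on the array), oligodendrocytes (3 of 4) and microglia (5 of 5) had signal high enough for testing, as had 3 of 4 for endothelium. Summed over the 4 astrocyte markers on the array, the log2 level was 10.40 to 10.73 on BALB/cByJ arrays and 10.63 to 11.32 on others. Aqp4 (-0.59, adjusted p = 0.024) and Gja1 (-0.60, 0.016) passed the BALB/cByJ test described below (limma) as lower. Glul (0.46, 0.12) and Gfap (0.18, 0.53) were higher in that strain and did not pass. The 7 neuron markers summed to 12.99 to 13.16 in BALB/cByJ and 12.74 to 13.34 elsewhere, with 2 of the 7 lower in that strain, among them Syt1 (-0.90, adjusted p = 0.0019), and 1 higher, Nrgn (0.45, 0.043). For the 3 choroid plexus markers the sums were 6.97 to 7.55 and 6.70 to 8.82, and 1 of them, Ttr, was lower in BALB/cByJ (-0.90, adjusted p = 0.0048). The sums were, for oligodendrocytes 11.30 to 11.48 and 11.13 to 11.98, for microglia 9.19 to 9.75 and 9.27 to 9.98, for endothelium 7.44 to 8.02 and 7.11 to 8.26, for blood 9.25 to 9.86 and 9.08 to 10.57, and for immediate early genes 9.31 to 9.67 and 9.07 to 9.81. Sense-strand signal is set beside the BALB/cByJ calls below, but its part as a cause was not tested. The part of cell make-up in the results was not tested either, and in whole tissue, fewer cells of a type and less RNA per cell cannot be told apart.

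Chaperone genes differed between strains about as often as other genes did. The F-test in limma across 8 strains called 3 of 67 member probe sets (4.48%) at an adjusted p under 0.05, where 4.58% of all probe sets tested were called. The 3 were Hsp90aa1, Dnajc10 and 1 of the probe sets for Hspd1. The median distance between the highest and lowest strain mean was 0.62 on the log2 scale for the members and 0.68 for all probe sets, and 16 members (23.9%, against 22.2% of all) spanned 2-fold or more. When the preparation number entered the fit as a block, 20 members (29.9%) were called, against a background of 18.9%. By family these 20 were 5 of 13 HSP70 probe sets, both HSP90 probe sets, 1 of 3 DnaJ A, 2 of 11 DnaJ B, 2 of 17 DnaJ C, 2 of 3 small heat shock proteins, all 3 of the mitochondrial chaperonin and 3 of 12 of TRiC. Among all pairs of strains, 25 of 1876 member comparisons were called (1.33%, background 1.58%). Without preparation 1 or without preparation 2 of FVB/NJ, the F-test called 0 members at an adjusted p under 0.05, with 3.57% and 3.53% of all probe sets called. It called 1 member without array 1 of C3H/HeJ, C57BL/6J, DBA/2J or SJL/J, without preparation 2 of BALB/cByJ, or without either preparation of DBA/2J.

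**Figure D1:**
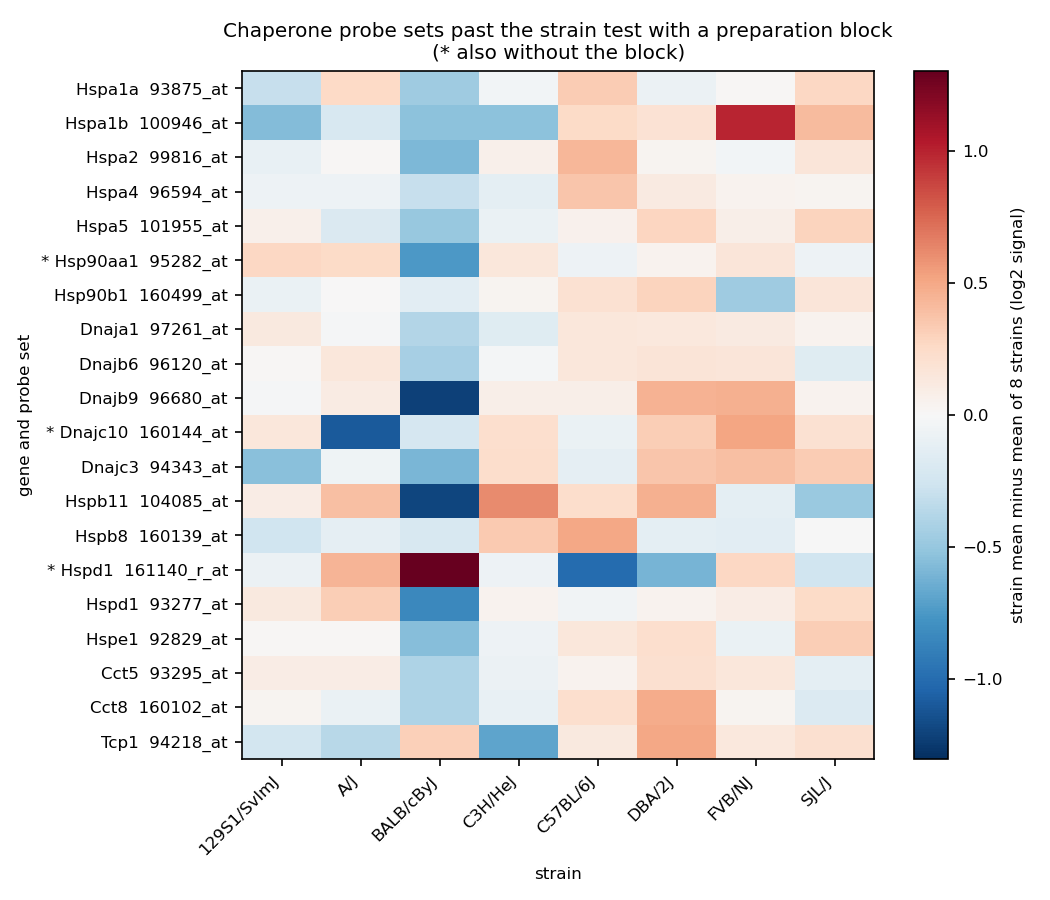
Rows are the 20 chaperone probe sets past the strain F-test with a preparation block (an asterisk marks the 3 also past it without), columns are the 8 strains, and colour is the strain mean minus the mean of the 8 strains in log2 signal. The column of BALB/cByJ is blue in most rows and deep red for Hspd1 161140_r_at, while Dnajc10 is low in A/J.

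Hsp90aa1, the inducible cytosolic HSP90, had 1 tested probe set (95282_at), and BALB/cByJ was its lowest strain. Its preparation values in log2 signal were 10.79 and 10.36 in BALB/cByJ, and the 14 values of the other strains ran from 11.17 to 11.70. The strain means were 10.57 ± 0.31 (SD, n = 2) in BALB/cByJ, 11.26 in C57BL/6J and in SJL/J, 11.37 in DBA/2J, 11.47 in C3H/HeJ, 11.48 in FVB/NJ, 11.57 in A/J and 11.59 ± 0.15 (n = 2) in strain-129S1/SvImJ. Both BALB/cByJ preparations thus lay below every other value. The F-test gave an adjusted p of 0.020 (0.0032 with the preparation block) for a span of 2.03-fold. BALB/cByJ was lower than the mean of the other 7 strains by a log2 difference of -0.86 ± 0.13 (SE), which is 1.81-fold (limma, adjusted p = 0.0021). In the test of pairs BALB/cByJ differed from every strain other than SJL/J (adjusted p = 0.0061 to 0.025, and 0.065 for SJL/J, which was 0.012 with the block), and no pair among the other 7 strains was called for this gene. The 4 BALB/cByJ arrays themselves were uneven, at 11.57, 10.02, 9.60 and 11.11, so that arrays 1 and 4 lay within the 10.83 to 11.95 of the other strains' arrays. Without array 2 the difference was -0.47 (adjusted p = 0.17), and the F-test's adjusted p was 0.78 without array 2, 0.24 without array 3 and 0.87 without the strain. It rose to between 0.051 and 0.058 without array 4 of BALB/cByJ, array 1 of DBA/2J or SJL/J, or either preparation of FVB/NJ, and was 0.19 without BALB/cByJ preparation 2, 0.097 without a variance trend and 0.34 on the 32 arrays with preparation as a random block.

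The second HSP90 gene, Hsp90b1, encodes GRP94 of the ER, and its pattern was another. Its strain means were 8.67 ± 0.08 in FVB/NJ, 8.99 ± 0.33 in BALB/cByJ, 9.04 in strain-129S1/SvImJ, 9.13 in A/J, 9.16 in C3H/HeJ, 9.28 in SJL/J, 9.33 in C57BL/6J and 9.42 ± 0.20 in DBA/2J (SD, n = 2). FVB/NJ was the lowest, with preparations at 8.62 and 8.73, and BALB/cByJ preparation 2, at 8.75, came next. FVB/NJ against the other 7 gave -0.52 ± 0.15 (SE), which did not pass (limma, adjusted p = 0.32) and passed only with the preparation block (adjusted p = 0.021). Stip1, the protein that links HSP70 to HSP90, was highest in DBA/2J, with preparations at 7.86 and 7.51, where the other 14 values ran from 6.25 to 7.32. Its DBA/2J difference of 0.71 ± 0.21 likewise passed only with the block (adjusted p = 0.14 without and 0.027 with it), and without the block DBA/2J differed from BALB/cByJ alone in the test of pairs (adjusted p = 0.045).

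Among the HSP70 genes, Hspa5 and Hspa2 were called against the other 7 strains without the block. Hspa8, the constitutive cytosolic HSP70, had strain means of 10.18 in FVB/NJ, 10.32 in A/J, 10.39 in strain-129S1/SvImJ, 10.44 in C3H/HeJ, 10.45 in SJL/J, 10.57 in BALB/cByJ, 10.67 in C57BL/6J and 10.69 in DBA/2J. Its SD over 2 preparations was 0.01 to 0.34 and its F-test did not pass (adjusted p = 0.49). Hspa5 (BiP, the HSP70 of the ER) was lowest in BALB/cByJ, with preparations at 8.33 and 8.21, and the other 14 values ran from 8.53 to 9.24. BALB/cByJ was lower than the other strains by -0.56 ± 0.13 (SE; 1.48-fold, limma, adjusted p = 0.018). Without BALB/cByJ array 2 or 3 or FVB/NJ array 2 the difference was -0.39 to -0.54 (adjusted p = 0.055 to 0.10), and without either BALB/cByJ preparation it was -0.62 or -0.50 (adjusted p = 0.11 each). With FVB/NJ array 2 counted with preparation 2 it was -0.54 (adjusted p = 0.059).

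Hspa2, best known as an HSP70 of male germ cells, stood at 5.89 and 5.94 in the BALB/cByJ preparations and at 6.18 to 7.01 in the other 14. The strain order ran from 5.91 ± 0.04 in BALB/cByJ through 6.40 in strain-129S1/SvImJ, 6.46 in FVB/NJ, 6.51 in A/J, 6.53 in DBA/2J, then 6.56 in C3H/HeJ and 6.65 in SJL/J to 6.92 ± 0.12 in C57BL/6J (SD, n = 2). The preparation values did not overlap, but single arrays did, at 6.09, 5.69, 5.73 and 6.15 in BALB/cByJ against 6.02 and 6.05 on the lowest others, A/J array 2 and FVB/NJ array 1. BALB/cByJ was lower by -0.66 ± 0.18 (limma, adjusted p = 0.036). This call had a narrow margin. It was lost (difference -0.56 to -0.69, adjusted p = 0.051 to 0.23) without A/J array 1, BALB/cByJ array 2 or 3, C3H/HeJ array 2 or FVB/NJ array 2. The same held without preparation 1 or 2 of BALB/cByJ or DBA/2J, or preparation 2 of C57BL/6J, FVB/NJ or SJL/J, and with FVB/NJ array 2 counted with preparation 2 (-0.64, 0.079).

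Hspa1a and Hspa1b, the stress-inducible HSP70 genes, are near-identical neighbours, so reads of their probe sets cannot be assigned to 1 of them with certainty. The Hspa1b probe set (100946_at) had its highest values in FVB/NJ, at 7.03, 7.06, 6.90 and 7.23 on the 4 arrays. Strain means ran from 5.50 ± 0.78 in strain-129S1/SvImJ, 5.53 in BALB/cByJ and in C3H/HeJ, 5.86 in A/J, 6.25 in DBA/2J, 6.31 in C57BL/6J and 6.48 in SJL/J to 7.06 ± 0.01 in FVB/NJ (SD, n = 2). The FVB/NJ difference, 1.13 ± 0.30 (SE) or 2.19-fold, did not pass without the block (limma, adjusted p = 0.23) and passed with it (adjusted p = 0.017). The Hspa1a probe set (93875_at) did not share that order: its means were 6.12 in BALB/cByJ, 6.28 in strain-129S1/SvImJ, 6.50 in DBA/2J, 6.55 in C3H/HeJ, 6.60 in FVB/NJ, 6.84 in A/J, 6.85 in SJL/J and 6.91 in C57BL/6J. With the block both were lower in BALB/cByJ, Hspa1a by -0.53 ± 0.24 (adjusted p = 0.16 without and 0.011 with the block) and Hspa1b by -0.61 ± 0.30 (0.19 and 0.046).

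The remaining HSP70 genes gave smaller or less steady differences. Hspa4, an HSP110-like exchange factor, had 4 tested probe sets, which correlated across the 8 strain means at r from -0.39 to 0.55. Its brightest, 96594_at, ran from 8.84 ± 0.12 in BALB/cByJ over 9.01 in C3H/HeJ, 9.07 in strain-129S1/SvImJ and A/J, 9.17 in SJL/J, 9.18 in FVB/NJ and 9.25 in DBA/2J to 9.50 ± 0.09 in C57BL/6J (SD, n = 2). With the block it was called higher in C57BL/6J (0.42 ± 0.11, adjusted p = 0.074 without and 0.022 with the block) and lower in BALB/cByJ (-0.34 ± 0.11, 0.066 and 0.021). In the test of pairs it was lower in BALB/cByJ than in C57BL/6J without the block (-0.66, limma, adjusted p = 0.016). Hspa1l, another HSP70 of male germ cells, ranged widely, from 4.01 in SJL/J, 4.44 in FVB/NJ, 4.57 in BALB/cByJ, 4.61 in C57BL/6J, 4.73 in C3H/HeJ, 4.79 in DBA/2J and 4.85 in strain-129S1/SvImJ to 5.27 in A/J, but SJL/J had an SD of 1.13 over its preparations and the F-test gave an adjusted p of 0.86. Hsph1, the HSP110 partner of HSP70, had means of 9.56 in C3H/HeJ, 9.63 in A/J, 9.75 in FVB/NJ, 9.83 in strain-129S1/SvImJ, 9.86 in BALB/cByJ and SJL/J, 9.89 in DBA/2J and 10.05 in C57BL/6J (adjusted p = 0.71). The mitochondrial Hspa9 spanned 0.35 (adjusted p = 0.81), Hspa4l 0.22 (0.94) and Hspa14 0.46 (0.96). Hspbp1, a regulator that binds HSP70 and was taken in by its symbol, ran from 7.86 in SJL/J, 7.96 in A/J, 7.98 in DBA/2J, 8.03 in FVB/NJ, 8.07 in strain-129S1/SvImJ, 8.08 in C57BL/6J and 8.10 in C3H/HeJ to 8.24 in BALB/cByJ (adjusted p = 0.89).

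Dnajc10 was the member with the clearest difference in a strain other than BALB/cByJ. It encodes ERdj5, a J-domain protein of the ER that reduces disulfide bonds of misfolded proteins. On the 4 A/J arrays its log2 signal was 6.01, 5.63, 5.97 and 6.10, below all 28 arrays of the other strains, of which the lowest were BALB/cByJ array 1 at 6.46 and C57BL/6J array 2 at 6.47. The strain means were 5.93 ± 0.15 in A/J, 6.81 ± 0.42 in BALB/cByJ, 6.94 in C57BL/6J, 7.17 in strain-129S1/SvImJ, 7.22 in SJL/J, 7.24 in C3H/HeJ, 7.35 in DBA/2J and 7.54 ± 0.20 in FVB/NJ (SD, n = 2). A/J was lower than the mean of the other 7 by -1.26 ± 0.21 (SE), or 2.39-fold (limma, adjusted p = 0.0084, and 3.2e-05 with the preparation block). It was the 1 member of 67 called lower in A/J, where 0.335% of all probe sets were (0.725% with the block). The strain itself took 66.0% of the probe set's variance over the 32 arrays, against a median of 10.5% for the members.

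The order behind A/J was less firm for Dnajc10. In the test of pairs A/J differed from DBA/2J (adjusted p = 0.016) and FVB/NJ (0.0099). Against the other 5 strains the adjusted p was 0.054 to 0.12. With the preparation block all 7 pairs with A/J passed (adjusted p = 3.5e-05 to 0.0037). No pair of neighbours in the order was called without the block. Sense-strand signal was high on A/J arrays 1 and 2 and low on arrays 3 and 4, and the gene was low on all 4. The A/J call was lost only where 1 preparation of A/J was left out, with a difference of -1.15 without preparation 1 (adjusted p = 0.34) and -1.36 without preparation 2 (adjusted p = 0.12), in fits where A/J kept 1 value. The F-test, at an adjusted p of 0.034, was lost (0.053 to 0.23) without array 1 of C3H/HeJ, C57BL/6J or SJL/J, array 2 of FVB/NJ, or any 1 preparation of A/J, DBA/2J or FVB/NJ. It was also lost with an offset of 64 (0.054), without a variance trend (0.081) and with FVB/NJ array 2 counted with preparation 2 (0.081).

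**Figure D2:**
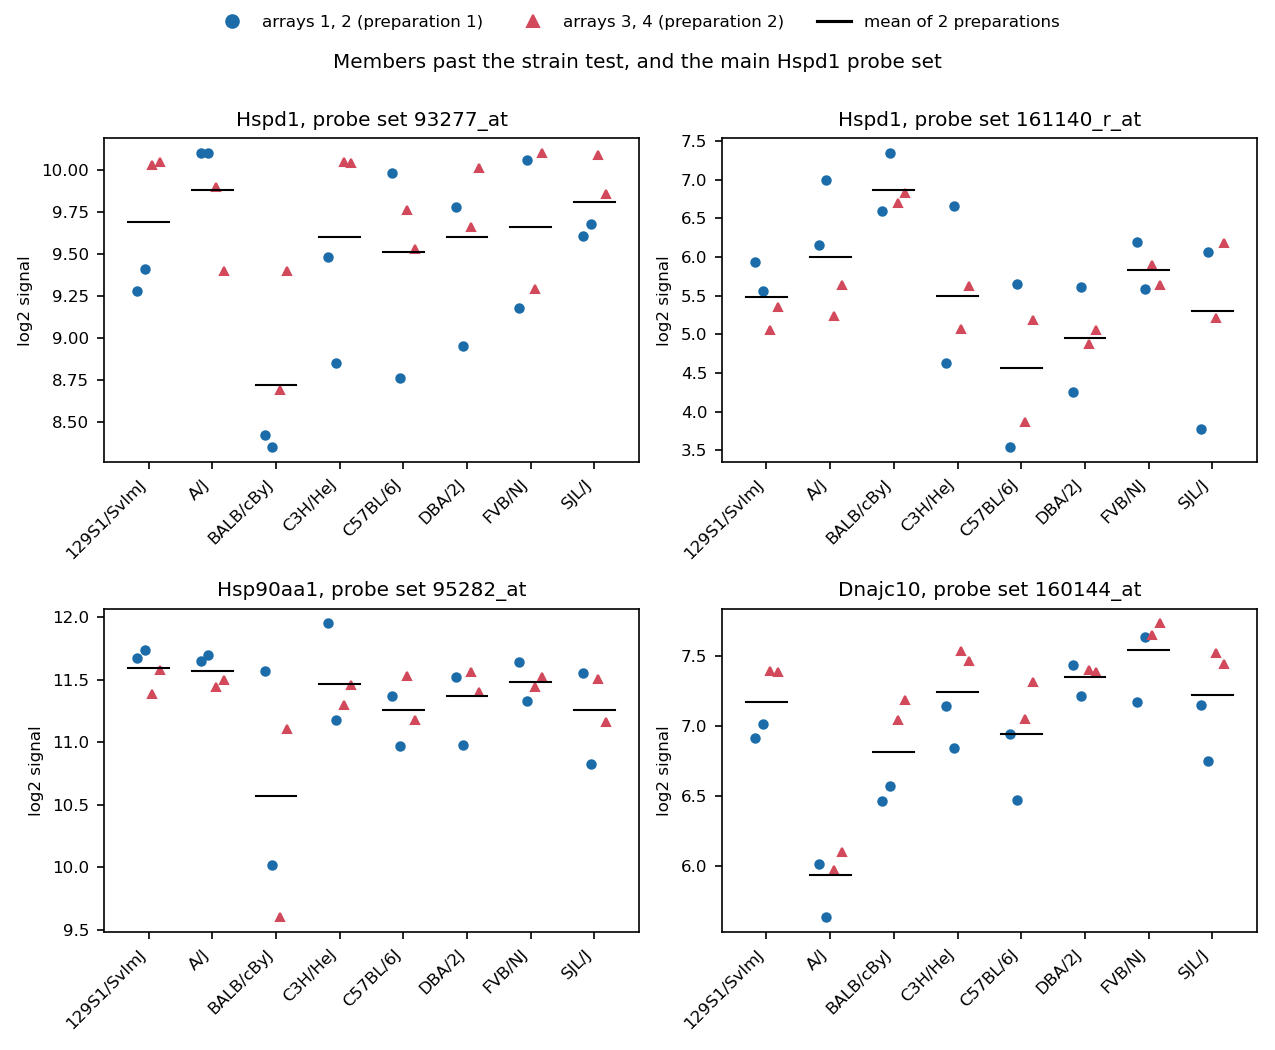
Each panel plots the log2 signal (vertical axis) of the 4 arrays of each strain (horizontal axis) for 1 probe set, with circles for preparation 1, triangles for preparation 2 and bars for the mean of the 2 preparations. Dnajc10 is low on all 4 A/J arrays, Hsp90aa1 is low and uneven in BALB/cByJ, and both Hspd1 probe sets set BALB/cByJ apart in opposite directions.

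Hspd1 (HSP60, the mitochondrial chaperonin) was read by 2 tested probe sets that moved in opposite directions in BALB/cByJ. On 93277_at the 4 BALB/cByJ arrays read 8.42, 8.35, 8.69 and 9.40, and on 161140_r_at they read 6.59, 7.34, 6.69 and 6.83. The other strains had preparation values of 9.17 to 10.10 on the first and 4.52 to 6.58 on the second, so both preparations of BALB/cByJ (8.39 and 9.05, then 6.97 and 6.76) lay outside them each time. BALB/cByJ was lower by -0.96 ± 0.23 (SE; 1.95-fold, limma, adjusted p = 0.025) on 93277_at and higher by 1.49 ± 0.28 (2.81-fold, adjusted p = 0.0074) on 161140_r_at. Across the 8 strain means the 2 probe sets had r = -0.56, given as a description of strains that share arrays. The suffix _r marks probe sets chosen under relaxed rules, which can read other transcripts, so the direction for the gene cannot be settled from these arrays.

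The order on 93277_at was 8.72 ± 0.47 in BALB/cByJ, 9.51 in C57BL/6J, 9.60 in C3H/HeJ and DBA/2J, 9.66 in FVB/NJ, 9.69 in strain-129S1/SvImJ, 9.81 in SJL/J and 9.88 ± 0.32 in A/J (SD, n = 2). On 161140_r_at, Hspd1 read 4.56 ± 0.05 in C57BL/6J, 4.95 in DBA/2J, 5.30 in SJL/J, 5.48 in strain-129S1/SvImJ, 5.49 in C3H/HeJ, 5.83 in FVB/NJ, 6.0 in A/J and 6.86 ± 0.15 in BALB/cByJ. This span of 4.95-fold passed the F-test (adjusted p = 0.024), and in the test of pairs BALB/cByJ differed from C57BL/6J (adjusted p = 0.0024) and DBA/2J (0.011). With the block it also differed from SJL/J (0.0097), strain-129S1/SvImJ (0.015), C3H/HeJ (0.019) and FVB/NJ (0.037), and C57BL/6J from A/J (0.021) and FVB/NJ (0.048). On 93277_at no pair was called without the block, and with it BALB/cByJ differed from all 7 strains (adjusted p = 0.0057 to 0.025). C57BL/6J was also called lower on 161140_r_at (-1.14 ± 0.28, adjusted p = 0.048), 1 member of 67 against a background of 1.37%, but that call was lost under 42 of the 59 alternatives, among them 21 in which 1 array was left out, with differences from -1.67 to -0.62 when 1 array or preparation was left out. The BALB/cByJ call on 93277_at was lost without BALB/cByJ array 3 (-0.78, adjusted p = 0.066) or preparation 1 (-0.63, 0.34), without C57BL/6J array 1 (-0.92, 0.058) and without FVB/NJ array 2 (-0.93, 0.052). It was also lost without a variance trend (-0.96, 0.051) and with FVB/NJ array 2 counted with preparation 2 (-0.94, 0.053). That on 161140_r_at was lost without BALB/cByJ preparation 1 (1.39, adjusted p = 0.11). Its F-test was lost on the 32 arrays with preparation as a random block (adjusted p = 0.16), with a sense-strand block (0.13) and without the strain BALB/cByJ (0.40), and it was lost (0.051 to 0.17) without array 1 of A/J, C3H/HeJ, C57BL/6J or DBA/2J, array 3 of C57BL/6J, array 2 or 3 of SJL/J, or any 1 preparation of BALB/cByJ, C57BL/6J, DBA/2J or FVB/NJ.

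Hspe1 (HSP10, the lid of the chaperonin) lies head to head with Hspd1: their promoter windows share 285 of 300 bases, with the heat shock repeats shown above in the shared stretch. Hspe1 (92829_at) had 7.39 and 7.41 in the BALB/cByJ preparations, and 7.73 to 8.5 in the other 14. Its strain means were 7.40 ± 0.02 in BALB/cByJ, 7.87 in FVB/NJ, 7.89 in C3H/HeJ, 7.97 in strain-129S1/SvImJ and A/J, 8.11 in C57BL/6J, 8.18 in DBA/2J and 8.28 ± 0.30 in SJL/J (SD, n = 2). BALB/cByJ was lower by -0.64 ± 0.16 (SE; limma, adjusted p = 0.026), the same direction as Hspd1 93277_at. The close pair of preparation values hid uneven arrays, at 7.61, 7.17, 6.52 and 8.31. Without array 3 the difference fell to -0.19 (adjusted p = 0.57), and the call was also lost without BALB/cByJ array 2 (-0.53, 0.067), BALB/cByJ preparation 1 (-0.62, 0.20) or 2 (-0.65, 0.11), or FVB/NJ array 2 (-0.60, 0.086). It was lost as well on the 32 arrays with preparation as a random block (-0.64, 0.063) and with FVB/NJ array 2 counted with preparation 2 (-0.61, 0.091).

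Of the DnaJ A proteins, which resemble the bacterial founder of the family most closely, Dnaja1 was the one with a call. Its BALB/cByJ arrays read 9.78, 9.20, 9.77 and 9.20, and the 28 others 9.22 to 10.14, so the arrays overlapped. The preparation means did not: 9.49 for each of the BALB/cByJ preparations against 9.55 to 10.04. Strain means were 9.49 in BALB/cByJ, 9.71 in C3H/HeJ, 9.85 in A/J, 9.91 in SJL/J, 9.98 in FVB/NJ, 9.99 in strain-129S1/SvImJ, 10.00 in DBA/2J and 10.01 in C57BL/6J, and the difference was -0.43 ± 0.10 (SE; limma, adjusted p = 0.024). It was lost without BALB/cByJ array 2 or 4 (-0.29 each, adjusted p = 0.13 and 0.11), C3H/HeJ array 2 (-0.41, 0.072), or BALB/cByJ preparation 1 (-0.44, 0.18) or 2 (-0.43, 0.10), and also with quantile normalization (-0.42, 0.051) and without a variance trend (-0.43, 0.060). Dnaja2, a cytosolic relative, ran from 7.23 in SJL/J, 7.32 in FVB/NJ, 7.42 in C3H/HeJ, 7.47 in DBA/2J, 7.48 in strain-129S1/SvImJ, 7.54 in C57BL/6J and 7.62 in BALB/cByJ to 7.68 in A/J (adjusted p = 0.93). The mitochondrial Dnaja3 ran from 7.83 in C3H/HeJ, 7.91 in A/J, 7.93 in BALB/cByJ, 8.00 in C57BL/6J, 8.06 in strain-129S1/SvImJ and FVB/NJ and 8.09 in DBA/2J to 8.13 in SJL/J (adjusted p = 0.90).

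In the DnaJ B group Dnajb6, which keeps aggregation-prone proteins soluble in neurons, was lower in BALB/cByJ. Its probe set 96120_at read 9.25, 9.0, 9.4 and 9.21 there and 9.15 to 9.99 on the 28 other arrays, of which SJL/J array 2 was the lowest. Strain means were 9.22 ± 0.13 in BALB/cByJ, 9.50 in SJL/J, 9.63 in C3H/HeJ, 9.67 in strain-129S1/SvImJ, 9.80 in A/J and C57BL/6J, 9.81 in FVB/NJ and 9.82 ± 0.02 in DBA/2J (SD, n = 2). The difference was -0.50 ± 0.11 (SE; limma, adjusted p = 0.015) and was lost without BALB/cByJ preparation 1 (-0.41, adjusted p = 0.20). On the second Dnajb6 probe set, 104625_at, BALB/cByJ lay next to the lowest strain within a span of 0.33. It had 6.82 in A/J, 6.83 in BALB/cByJ, 6.92 in FVB/NJ, 6.96 in C57BL/6J, 6.97 in SJL/J, 6.98 in strain-129S1/SvImJ, 7.04 in DBA/2J and 7.15 in C3H/HeJ (F-test adjusted p = 0.96), and the 2 probe sets correlated over strains at r = 0.24.

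Dnajb9 (ERdj4, an ER J-domain protein of the unfolded protein response) had the widest span of the DnaJ B group on probe set 96680_at. Its means ran from 4.75 ± 0.60 in BALB/cByJ over 5.95 in strain-129S1/SvImJ, 6.01 in SJL/J, 6.04 in C3H/HeJ and C57BL/6J, 6.07 in A/J and 6.41 in DBA/2J to 6.42 ± 0.38 in FVB/NJ (SD, n = 2). The BALB/cByJ difference of -1.39 ± 0.45 (SE) passed only with the block (limma, adjusted p = 0.065 without and 0.00045 with it), and the second probe set, 96679_at, had BALB/cByJ at 5.83 between C57BL/6J at 5.47 and strain-129S1/SvImJ at 5.90. Dnajb11 (ERdj3, a J-domain partner of BiP in the ER) was lowest in BALB/cByJ at 5.19, with the other strain means at 5.64 to 6.04, and its difference of -0.64 ± 0.22 passed only with the block (adjusted p = 0.08 without and 0.0099 with it). Dnajb3, a J protein of male germ cells, spanned 1.43 on 97481_r_at, from 3.66 in strain-129S1/SvImJ over 4.36 in FVB/NJ, 4.52 in C57BL/6J, 4.53 in DBA/2J, 4.67 in BALB/cByJ, 4.85 in SJL/J and 5.07 in A/J to 5.09 in C3H/HeJ, with SDs of 0.37 to 0.83 (adjusted p = 0.65). Dnajb1, the heat-inducible HSP40, was level: 6.42 in C3H/HeJ, 6.54 in A/J, 6.55 in strain-129S1/SvImJ, 6.63 in BALB/cByJ, 6.68 in C57BL/6J, 6.79 in FVB/NJ, 6.83 in DBA/2J and 6.86 in SJL/J (adjusted p = 0.93). Dnajb2, which is enriched in neurons, read 6.76 in A/J, 6.84 in C3H/HeJ, 6.90 in strain-129S1/SvImJ, 6.99 in SJL/J, 7.02 in BALB/cByJ, 7.07 in FVB/NJ, 7.14 in DBA/2J and 7.16 in C57BL/6J (adjusted p = 0.86).

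The other DnaJ C proteins, a mixed group defined by the J domain alone, had no call without the block, and with it Dnajc3 and Dnajc21 were called in BALB/cByJ. Dnajc3 (p58IPK, which acts with BiP in the ER) was read by 94343_at and 102414_i_at, whose strain means had r = 0.01. On 94343_at the means were 4.99 in BALB/cByJ, 5.04 in strain-129S1/SvImJ, 5.47 in C57BL/6J, 5.53 in A/J, 5.82 in C3H/HeJ, 5.92 in SJL/J, 5.95 in DBA/2J and 5.98 in FVB/NJ. The BALB/cByJ difference on it was -0.68 ± 0.42 (SE; limma, adjusted p = 0.29 without and 0.022 with the block). On 102414_i_at Dnajc3 had 4.66 in DBA/2J, 4.90 in C57BL/6J, 5.21 in strain-129S1/SvImJ, 5.32 in SJL/J, 5.34 in A/J, 5.41 in BALB/cByJ, 5.51 in FVB/NJ and 5.83 in C3H/HeJ (adjusted p = 0.45). The synaptic Dnajc5 ran from 7.58 in C57BL/6J, 7.71 in DBA/2J, 7.75 in A/J, 7.88 in SJL/J, 7.91 in C3H/HeJ, 7.99 in FVB/NJ and 8.05 in strain-129S1/SvImJ to 8.12 in BALB/cByJ (adjusted p = 0.57). Dnajc7, which binds HSP70 and HSP90 together, had 8.35 in strain-129S1/SvImJ, 8.37 in BALB/cByJ, 8.49 in C3H/HeJ, 8.52 in A/J and SJL/J, 8.55 in FVB/NJ, 8.74 in DBA/2J and 8.76 in C57BL/6J (adjusted p = 0.47). Dnajc8 on 95699_f_at ran from 8.99 in A/J, 9.08 in BALB/cByJ, 9.14 in SJL/J, 9.20 in strain-129S1/SvImJ, 9.21 in C3H/HeJ, 9.23 in FVB/NJ and 9.30 in DBA/2J to 9.45 in C57BL/6J (adjusted p = 0.61). On its second probe set, 95700_r_at, C57BL/6J was instead the lowest at 7.40 and SJL/J the highest at 8.06 (F-test adjusted p = 0.50). The strain means of these probe sets had r = -0.11. Dnajc21, a J protein of ribosome assembly, stood at 5.80 in BALB/cByJ and at 4.88 to 5.29 in the other strains, a difference of 0.77 ± 0.25 (adjusted p = 0.064 without and 0.0088 with the block). The span of the further DnaJ C genes ran from 0.42 for Dnajc13 to 1.10 for the mitochondrial Dnajc11, whose F-test gave an adjusted p of 0.47.

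Small heat shock proteins were sparse in this tissue on this array. Hspb1 (HSP25), the best known of them, had a mean signal of 6.94, below the limit of 21.3 for testing, with strain means between 1.77 and 3.17 on the log2 scale. Hspb11, taken in by its symbol, is also known as the intraflagellar transport protein IFT25. It read 3.36, 5.44, 3.96 and 3.29 on the BALB/cByJ arrays, and 3.72 to 6.22 on the 28 others, so that arrays 2 and 3 of BALB/cByJ lay within the other strains. Its means were 4.02 ± 0.55 in BALB/cByJ, 4.73 in SJL/J, 5.08 in FVB/NJ, 5.31 in strain-129S1/SvImJ, 5.44 in C57BL/6J, 5.60 in A/J, 5.67 in DBA/2J and 5.83 ± 0.17 in C3H/HeJ (SD, n = 2). BALB/cByJ was lower by -1.36 ± 0.29 (SE; 2.57-fold, limma, adjusted p = 0.016), a call that was lost without BALB/cByJ array 1 (-0.84, adjusted p = 0.13) or preparation 2 (-0.97, 0.14).

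Hspb8, a partner of Bag3 in selective autophagy, was highest in C57BL/6J. Its means on 160139_at were 5.95 in strain-129S1/SvImJ, 6.0 in BALB/cByJ, 6.08 in FVB/NJ, 6.09 in DBA/2J, 6.10 in A/J, 6.21 in SJL/J, 6.55 in C3H/HeJ and 6.72 ± 0.27 (SD, n = 2) in C57BL/6J. The C57BL/6J difference of 0.58 ± 0.21 (SE) passed only with the block (limma, adjusted p = 0.21 without and 0.023 with it). Hspb2, best known from muscle, read 6.26 in C3H/HeJ, 6.36 in DBA/2J, 6.49 in SJL/J, 6.54 in C57BL/6J, 6.61 in FVB/NJ, 6.64 in A/J, 6.70 in strain-129S1/SvImJ and 7.07 in BALB/cByJ on 103215_g_at, and its BALB/cByJ difference of 0.56 ± 0.19 also passed only with the block (adjusted p = 0.072 without and 0.011 with it).

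TRiC, which folds actin and tubulin, had 12 tested probe sets for 9 genes and no call without the block. Cct5 on 93295_at had means of 8.68 in BALB/cByJ, 8.96 in SJL/J, 9.01 in C3H/HeJ, 9.13 in C57BL/6J, 9.18 in strain-129S1/SvImJ and A/J, 9.23 in FVB/NJ and 9.29 in DBA/2J, and its second probe set, 161514_at, had BALB/cByJ lowest at 4.43 and DBA/2J highest at 5.44 (r = 0.70 over the 8 strains). Cct7 ran from 8.64 in BALB/cByJ, 8.80 in A/J and SJL/J, 8.84 in strain-129S1/SvImJ, 8.85 in C3H/HeJ, 8.90 in DBA/2J and 9.03 in FVB/NJ to 9.15 in C57BL/6J. In the test of pairs Cct7 was lower in BALB/cByJ than in C57BL/6J without the block (-0.51, limma, adjusted p = 0.046). With the block 5 of the 12 TRiC probe sets were lower in BALB/cByJ, where 16.6% of all probe sets were, those of Cct8, Cct7, Cct3 (98153_at) and both of Cct5, with differences of -0.27 to -0.71 and adjusted p of 0.0019 to 0.037 (limma). The other tested Cct3 probe sets were not called. On 161238_f_at BALB/cByJ was the highest strain at 6.81 (r = -0.41 with 98153_at). On the brightest, 98446_s_at, C3H/HeJ was lowest at 7.75 and BALB/cByJ read 7.88 (r = 0.63 with 98153_at). Tcp1, the first subunit, had means of 5.15 in C3H/HeJ, 5.47 in A/J, 5.60 in strain-129S1/SvImJ, 5.96 in C57BL/6J, 5.97 in FVB/NJ, 6.04 in SJL/J, 6.15 in BALB/cByJ and 6.34 in DBA/2J (F-test adjusted p = 0.24, and 0.033 with the block).

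Over all members, BALB/cByJ was the strain that most often stood apart, and mostly on the low side. In its contrast with the mean of the other 7 strains, 8 of 67 members were called lower (11.9%, background 5.81%) and 1 higher (1.49%, background 3.11%). The 8 were Hsp90aa1, Hspd1 93277_at, Hspe1, Hspa5, Hspa2, Dnaja1, Dnajb6 96120_at and Hspb11, and the 1 was Hspd1 161140_r_at. With the preparation block 19 were called lower (28.4%, background 16.6%) and 3 higher (4.48%, background 13.8%). Same-numbered preparations shifted together least in pairs with BALB/cByJ, so the counts with the block rest on weak pairing for this strain. Both BALB/cByJ preparations lay below all 14 other values for 12 members (17.9%, background 5.68%), and BALB/cByJ had the lowest of the 8 strain means for 24 (35.8%, background 27.5%). The median difference was -0.14 for the members, 42 of which were lower, and 0 for all probe sets tested. Centring each array on its median moved the BALB/cByJ median of all probe sets to -0.15 and that of the members to -0.30, so the distance between them stayed near that without centring, while 18 members were called lower. With that centring the BALB/cByJ calls over all probe sets, in either direction, rose from 665 to 1167. Of these 7.37% were on the high side, against 34.9% of the calls without centring. The counts that follow, with arrays or preparations left out, are not set beside the share of all probe sets. They describe the calls here and are not a result about chaperones alone. The count of 8 fell to 3 without BALB/cByJ array 2, to 5 without its array 3, to 4 without FVB/NJ array 2, to 2 without BALB/cByJ preparation 1 and to 4 without its preparation 2.

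**Figure D3:**
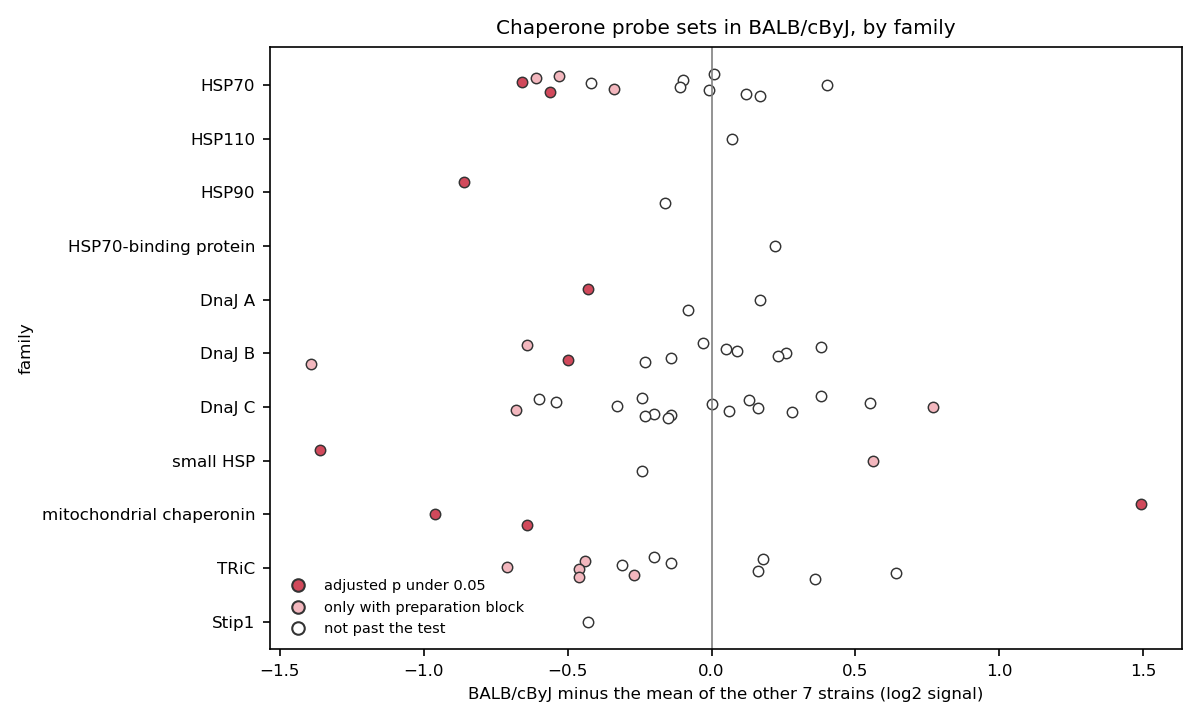
Each point is 1 of the 67 tested chaperone probe sets, with its family on the vertical axis (points of a family are spread vertically for legibility) and BALB/cByJ minus the mean of the other 7 strains in log2 signal on the horizontal axis. The 8 probe sets called lower come from the HSP70, HSP90, DnaJ A, DnaJ B, small HSP and mitochondrial chaperonin families, and 5 TRiC points are called only with the preparation block.

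Because all BALB/cByJ arrays had high sense-strand signal, the called members were also set against the 7 arrays of other strains with high signal and the 21 with low signal. For Hsp90aa1 the difference was as large within the arrays of high signal (-0.93) as against those of low signal (-0.83). For each of the other probe sets called without the block, the difference was smaller within the high arrays. Hspd1 93277_at gave -0.86 and -1.0, Hspb11 -1.15 and -1.43, and Hspd1 161140_r_at 1.08 and 1.63. Hspa5 gave -0.36 and -0.63, Hspe1 -0.42 and -0.71, Hspa2 -0.46 and -0.73, Dnajb6 -0.37 and -0.55, and Dnaja1 -0.27 and -0.49. Several of the members called only with the preparation block lay close to the other arrays of high signal, as with Cct8 (-0.05 and -0.60) and Cct3 (-0.09 and -0.56). An alternative chosen after seeing the data held the sense-strand state of each preparation as a term of the fit, with FVB/NJ array 1 left out. In it 1 member was still called lower in BALB/cByJ, Hsp90aa1. The higher call of Hspd1 161140_r_at was lost (1.34, limma, adjusted p = 0.076). The share of all probe sets called in this fit is not given here, so the loss of calls is not a result about chaperones alone. The term rests on A/J, C3H/HeJ and SJL/J, where the preparation of high signal is also preparation 1.

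**Figure D4:**
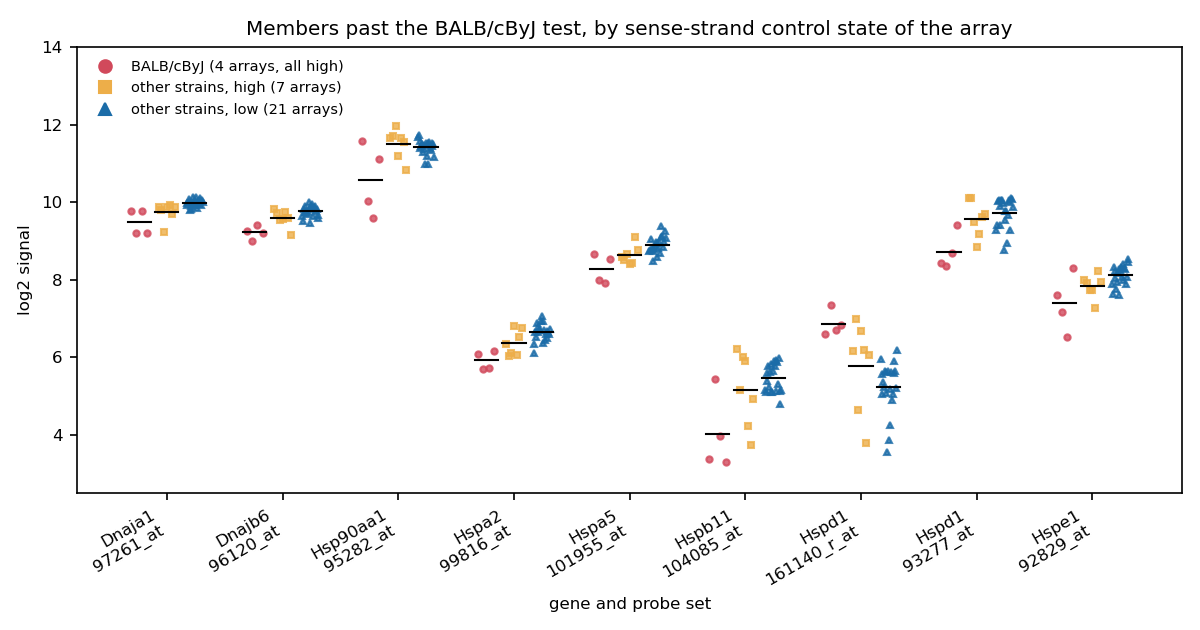
The log2 signal (vertical axis) of single arrays is plotted for the 9 probe sets called in BALB/cByJ (horizontal axis), with circles for the 4 BALB/cByJ arrays, squares for the 7 arrays of other strains with high sense-strand control signal, triangles for the 21 with low signal, and bars for the means. For Hsp90aa1 the 2 groups of other arrays sit together above BALB/cByJ, and for Dnaja1 and Hspa5 the arrays of high signal sit between.

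The other strains had few or no calls. In strain-129S1/SvImJ 0 members were called by limma in either direction, without or with the block (background 0.751% and 1.84%). The same count of 0 held for SJL/J (0.55% and 1.41%) and C3H/HeJ (0.577% and 1.61%). In DBA/2J 0 members were called without the block (background 1.44%), and in FVB/NJ also 0 (background 0.389%). The members leaned upwards in DBA/2J: 50 of 67 (74.6%) were above the mean of the other strains, with a median of 0.13, against 58.5% and 0.05 for all probe sets. That lean held in the larger families, with 10 of 13 HSP70, 9 of 11 DnaJ B, 12 of 17 DnaJ C and 10 of 12 TRiC probe sets higher, and it was 50 of 67 after median centring of arrays and 49 of 67 after quantile normalization. In C57BL/6J 39 of 67 members (58.2%) were above the mean of the other strains, against 45.8% of all probe sets. The members' median was 0.07 and that of all probe sets -0.03. The count was 47 after quantile normalization and 54 after median centring. Centring moved all probe sets too: the members' median was then 0.20 and that of all probe sets 0.10. With the block DBA/2J had 2 members called higher (background 1.78%), Stip1 and Cct8 (Cct8 by 0.55 ± 0.20, adjusted p = 0.30 without and 0.027 with the block), and FVB/NJ had 2 higher (background 0.738%), Hspa1b and Dnajc10 (0.59 ± 0.21, 0.58 and 0.021), and 1 lower (background 0.792%), Hsp90b1. In C57BL/6J the block added 3 as higher (background 3.02%), Hspb8, Hspa4 96594_at and Hspa2 (0.49 ± 0.18, 0.22 and 0.047), and of 2 lower (background 3.61%) it added Dnajb9 96679_at (-0.64 ± 0.38, 0.53 and 0.040). Of all C57BL/6J calls 40% were on the high side, and 62.0% after median centring.

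The 2 cRNA preparations of the same cDNA also differed for members, and this measures technical shift. The count is not comparable with that of the strain F-test, which is a test of another form. That F-test called 3 members without a preparation term and 20 with it (background 4.58% and 18.9%). In a fit that also held the 8 strains, 25 of 67 members differed between preparations (37.3%, background 37.5%), 21 of them higher in preparation 2 (31.3%, background 25.6%) and 4 lower (5.97%, background 11.9%). The largest shifts were those of Dnajb9 and Dnajc3. Dnajb9 was higher in preparation 2 in 8 of 8 strains on both its probe sets, by 0.95 ± 0.14 (SE) on 96680_at and 0.81 ± 0.12 on 96679_at (limma, adjusted p = 0.00042 each), with strain-129S1/SvImJ going from 5.19 to 6.71 on the first. Dnajc3 (94343_at) was higher by 0.89 ± 0.14, again in 8 of 8 strains (adjusted p = 0.00053), from 0.35 in A/J to 1.47 in strain-129S1/SvImJ.

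Cct5 (93295_at) was higher in preparation 2 by 0.39 ± 0.06 (adjusted p = 0.00048), Hspa1a by 0.45 ± 0.09 (0.0024), Hspa4 (92571_at) by 0.57 ± 0.13 (0.0034) and Dnajc9 by 0.41 ± 0.08 (0.0025), each in 8 of 8 strains. Hspe1 (0.27 ± 0.07, adjusted p = 0.0079) and Dnajc10 (0.39 ± 0.08, 0.0023) were also higher in 8 of 8. The 4 that were lower were Dnajb5 (-0.41 ± 0.12, adjusted p = 0.018), Hspb8 (-0.33 ± 0.09, 0.014), Hsp90b1 (-0.25 ± 0.07, 0.012) and Hspbp1 (-0.22 ± 0.07, 0.018). Hsp90aa1 showed -0.06 ± 0.08 (adjusted p = 0.54). In the 3 strains whose arrays all had low sense-strand signal (C57BL/6J, DBA/2J and strain-129S1/SvImJ), an alternative chosen after seeing the data, 11 members differed, among them Dnajb9 and Dnajc3. There Dnajc10 (0.32, adjusted p = 0.11) and Dnajc9 (0.23, 0.17) did not pass. Without strain-129S1/SvImJ the count over the strains left was 16. The shares of all probe sets called in these fits with fewer strains are not given here. The lower counts are thus not a result about chaperones alone.

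**Figure D5:**
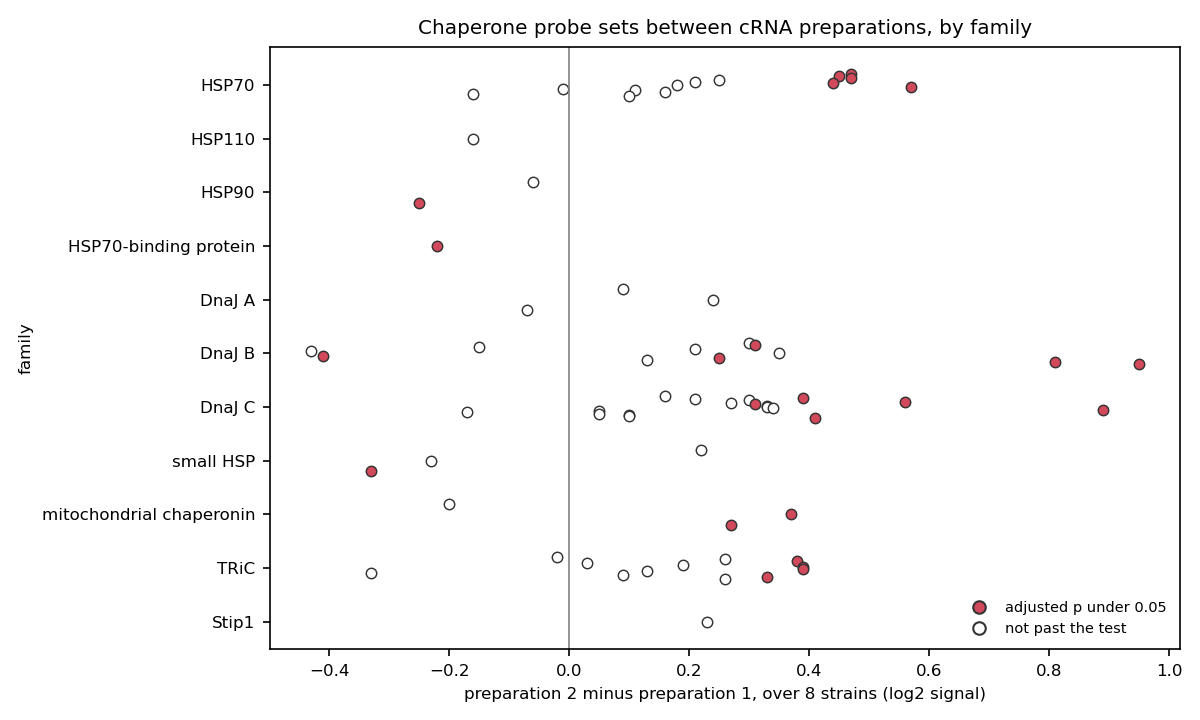
Each point is 1 of the 67 tested chaperone probe sets, with its family on the vertical axis and preparation 2 minus preparation 1 over the 8 strains in log2 signal on the horizontal axis. The 3 points farthest to the right, between 0.81 and 0.95, are both probe sets of Dnajb9 and 94343_at of Dnajc3.

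3 lists of pathway genes outside the families were set beside them, each gene by its brightest probe set, and genes of these lists other than Ddit3 are named after their values were seen. Of 30 co-chaperones and heat shock factors (1 of which, Hspbp1, is also a member), 21 were tested, and the F-test called 0 with or without the block. In BALB/cByJ, where 5.81% of all probe sets were called lower, 1 of the 21 was, Ppp5c, a phosphatase that binds HSP90 (-0.70, limma, adjusted p = 0.037). The heat shock factor genes Hsf2 and Hsf4 lay below the limit of signal, and Hsf1 was not analysed here. Of 28 ER chaperones and genes of the unfolded protein response, 19 were tested and the F-test called 1, Ddit3 (CHOP, a transcription factor of ER stress), with 4.74 in BALB/cByJ as the lowest strain and 6.21 in FVB/NJ as the highest (adjusted p = 0.041). In BALB/cByJ 2 of these 19 were called lower (background again 5.81%), Ddit3 (-1.28, adjusted p = 0.0033) and the disulfide isomerase Pdia3 (-0.79, 0.045). In preparation 2, 5 of the 19 were higher, where 25.6% of all probe sets were, and 0 lower (background 11.9%), among them Xbp1, the spliced transcription factor of the unfolded protein response (0.47, adjusted p = 0.0014), and Sel1l of ER-associated degradation (0.45, 0.0017). Of 20 prefoldin and mitochondrial quality control genes 13 were tested, with 0 called by the F-test and 2 with the block, Pfdn2 and Vbp1, subunits of the prefoldin that hands actin and tubulin to TRiC. Vbp1, 1 of the 13, was lower in BALB/cByJ (-0.76, adjusted p = 0.041) and higher in preparation 2 (0.45, 0.00048).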

How the data were processed

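Expression was measured in 32 arrays, 4 for each of 8 strains. The deposited values are MAS5 signal intensities, per the submitters' processing notes, whose version is not given in the sources used here. The authors' values were scaled array by array: the mean after removing 2% of values at each end was 100.05 to 100.07 on every array. Values under 1 (2.14%) were set to 1 and taken to log2. Of 12422 probe sets that are not controls, the 60% with the highest mean log2 signal (4.41 or more, which is a signal of 21.3) were tested. The 2 arrays of each cRNA preparation were averaged, giving 16 values. limma 3.58.1 in R 4.3.3 (lmFit, eBayes with a trend) tested the 8 strains together, each against the other 7, all 28 pairs, and preparation 2 against 1 with strain terms. The strain fits without a block had 8 residual degrees of freedom, and fits with a preparation term had fewer. Benjamini-Hochberg adjustment ran over all 7453 probe sets, with a threshold of 0.05, and a fit on simulated data was checked first. The arrays' number limits the precision.

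Preparation numbers pair the samples, since the series design states which arrays share a preparation. Deviations of same-numbered values from their strain means correlated at 0.109 to 0.557 over the 28 pairs of strains (median 0.385). Values with the preparation as a block are therefore printed beside the strain contrasts where they change a call, and for some pairs. The correlation was 0.109 to 0.244 in pairs with BALB/cByJ and 0.301 or more in pairs without it. Array titles date the later BALB/cByJ preparation after that of the other strains, apart from a date shared with FVB/NJ. The block, with which members called lower in BALB/cByJ went from 8 to 19, thus rests on the weakest pairing for that strain.

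Probe sets were named by the single symbol of the platform annotation, and those with several symbols were not named. All 80 member probe sets matched a RefSeq gene by Entrez number, with 0 symbols changed. The members, the pathway lists and the marker lists were chosen with earlier results of these data known. Genes were named by rule: members past the F-test or a strain contrast and the other probe sets of those genes, the 2 brightest and the 2 with the widest span of each family, and a list of well-known members. Alternatives were the normalization, the filter, offsets of 16 and 64 added to the signal, the variance trend, single arrays with a random block, the preparation block and leaving out arrays, preparations or BALB/cByJ. The sense-strand block, FVB/NJ array 2 counted with preparation 2, and the fit in 3 strains were chosen after seeing the data.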

Additional observations from a re-analysis of the deposited data

Results flagged for a closer look

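Within strains, 4 of 80 groups of 4 arrays, over the 10 probe sets called for a strain, had 1 array far from the other 3 by Dixon's criterion, and chance gives about 1 in 20. The ratio is the array's gap to its nearest neighbour over the range of the group. For Hspb11, SJL/J array 1 read 3.72 against 4.92 to 5.15 (ratio 0.838). For Hspe1, C57BL/6J array 1 read 7.60 against 8.24 to 8.32 (ratio 0.886). For Dnajb6 (96120_at), SJL/J array 2 read 9.15 against 9.60 to 9.67 (ratio 0.857). For Dnaja1, FVB/NJ array 3 read 10.1 against 9.92 to 9.95 (ratio 0.872). Each ratio was above the critical value for 4 arrays, and in 3 of these 4 groups the array that stood apart was the lowest.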

How the results depend on the processing

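The counts of chaperone probe sets past the threshold moved with the processing, and 0 results reversed direction. Calls over all probe sets moved as well: with median centring those in BALB/cByJ, in either direction, went from 665 to 1167. Where the counts of members below stand without the share of all probe sets, they are not a result about chaperones alone. The strain F-test called 3, and it called 8 with arrays centred on their median, 5 on the 32 arrays with preparation as a random block, 1 without a variance trend and 1 without BALB/cByJ. Leaving out 1 array or 1 preparation gave 0 to 4. Each strain against the other 7 gave 11 calls, 20 with median centring, 17 on the 32 arrays, 1 without BALB/cByJ, and 3 to 15 with 1 array or preparation left out. The pairs of strains gave 25, 68 with median centring, 16 without a filter, 12 without a variance trend, 4 without BALB/cByJ, and 12 to 37 with 1 left out. Members lower in BALB/cByJ numbered 8, 18 with median centring, and 2 to 11 with 1 left out. The preparation test gave 25, and 16 to 29 with 1 array or strain left out.

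With the preparation number as a replicate block the F-test called 20 (29.9%, background 18.9%) and the strains against the other 7 gave 33. The pairs gave 121, and the members lower in BALB/cByJ were 19 (28.4%, background 16.6%). Without the strains as a replicate block the preparation test called 12. Of the alternatives chosen after seeing the data, the sense-strand block left 3 strain calls, 15 pairs and 1 member lower in BALB/cByJ. Counting FVB/NJ array 2 with preparation 2 left 6, 14 and 4. In the 3 strains of low sense-strand signal the preparation test called 11. The cause of these changes was not tested, apart from fewer samples where arrays or strains were left out. Members near the limit of signal, such as Hspb11 and Dnajb3, are limited by signal over background, and 13 member probe sets lay below it.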
